A study of Rattus norvegicus with 8 samples.

Results

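The genes by which fat cells are usually known were followed here in lung tumor, normal lung and blood, and they were chosen because the probe of adiponectin (Adipoq) was among those with the largest rise in tumor. The 10 genes were Adipoq, Fabp4, Plin1, Lep, Cfd, Lpl, Retn, Pparg, Cd36 and Lipe. A probe was taken for a gene where the RefSeq transcript named on the array belongs to that gene, and this found 11 probes, each printed in 1 spot, among 24684 probes that are not controls. Of the 10 genes 9 had a probe, out of 13903 genes matched on the array as a whole. Pparg had 3 probes (1 per transcript), and none was matched to Plin1. Since the choice rests on the difference between tumor and normal lung, that difference is given for these genes as a description, with no test.

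The arrays came from male F344 rats at week 95 of a lung cancer model induced by NNK, a carcinogenic nitrosamine of tobacco smoke. There were 3 lung tumors and 3 normal lung tissues matched to them, all from NNK-treated rats, so that no lung of an untreated rat was among the samples. Blood was represented by the clot of 1 control rat and the clot of 1 NNK-treated rat. Every sample was hybridised on the Arraystar rat lncRNA array, a 1-colour Agilent array that also carries mRNA probes, and each value below is either the processed signal of a spot (background-subtracted intensity) or its log2 after quantile normalization within the 6 lung arrays or within the 2 blood arrays. For the NNK blood, one label field names a tumor but title, source and tissue name a clot, and the probe of the erythroid enzyme Alas2 read 659642 there against 2219 to 2319 on the tumor arrays.

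Fat cells store triglyceride in a lipid droplet and secrete hormones. Adiponectin is such a hormone, a protein of the C1q family that acts through the receptors Adipor1 and Adipor2 and also binds T-cadherin (Cdh13). Pparg is the nuclear receptor on which fat cell differentiation depends, and with C/EBP factors it drives many of the genes followed here. Several of them are not limited to fat: in the lung, alveolar macrophages also depend on Pparg and handle surfactant lipid with Cd36, Lpl and Fabp4, and the endothelium of capillaries carries Cd36 and Fabp4. In such tissue samples, fewer cells of a type and less RNA per cell cannot be told apart.

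The promoters of the genes on which the description turns are shown first, as the 250 bases before the transcription start in RefSeq (assembly GRCr8, read 5′ to 3′ on the gene's strand). Adipoq is shown for its high tumor level, Lep because its probe stayed at background in lung, and the 2 starts of Pparg because the array has several Pparg transcripts. Capitals mark the CCAAT box, which reads ATTGG where it lies on the other strand, and the palindrome of C/EBP factors, spelled TTGCGCAA.
Adipoq, chr11:91240170-91240419 (-): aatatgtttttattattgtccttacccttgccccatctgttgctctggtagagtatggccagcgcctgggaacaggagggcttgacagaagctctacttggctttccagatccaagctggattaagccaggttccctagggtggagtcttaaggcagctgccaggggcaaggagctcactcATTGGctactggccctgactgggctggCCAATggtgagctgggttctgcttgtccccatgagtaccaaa
Lep, chr4:58626288-58626537 (+): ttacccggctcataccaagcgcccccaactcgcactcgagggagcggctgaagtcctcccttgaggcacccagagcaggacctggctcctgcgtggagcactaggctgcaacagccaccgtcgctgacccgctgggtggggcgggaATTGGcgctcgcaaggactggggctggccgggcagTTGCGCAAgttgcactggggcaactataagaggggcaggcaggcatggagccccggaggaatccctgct
Pparg, first start, chr4:150096808-150097057 (+): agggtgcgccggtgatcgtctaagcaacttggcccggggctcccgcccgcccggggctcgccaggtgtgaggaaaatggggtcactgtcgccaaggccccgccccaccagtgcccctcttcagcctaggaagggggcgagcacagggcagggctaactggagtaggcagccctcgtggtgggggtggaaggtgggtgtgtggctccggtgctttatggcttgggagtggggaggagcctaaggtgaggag
Pparg, second start, chr4:150154522-150154771 (+): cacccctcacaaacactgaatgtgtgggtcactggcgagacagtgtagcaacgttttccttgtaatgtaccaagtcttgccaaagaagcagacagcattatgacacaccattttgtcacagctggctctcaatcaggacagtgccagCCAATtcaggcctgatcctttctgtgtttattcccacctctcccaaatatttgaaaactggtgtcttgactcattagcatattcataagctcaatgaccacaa
The Adipoq promoter held 2 CCAAT boxes, which began 69 and 42 bases before the start. The Lep promoter held 1 CCAAT box and 1 C/EBP palindrome. The first Pparg promoter held neither and the second held 1 CCAAT box. A CCAAT box on either strand was present in 34.017% of the 33469 rat promoters of that length and the palindrome in 0.14%. AGGTCA, a site bound by nuclear receptors such as Pparg, was searched too and was in none of these 4 windows (14.1% of all promoters), whereas the Retn promoter held 2. TATAAA was likewise in none of them, in 12.9% of all promoters and in the promoter of Cd36. No match overlapped another. RefSeq promoters were matched for 7 of the 10 genes, and those of Fabp4, Lpl and Lipe were not.

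Among the secreted proteins, Adipoq stood apart. Its processed signal was 68.8, 75.01 and 65.7 on the normal lung arrays and 3151, 2788 and 2799 on the tumor arrays. The groups did not overlap, and no spot of this probe carried an outlier mark. The mean log2 signal was 6.25 in normal lung and 11.52 in tumor, a difference of 5.27 (SE 0.067 from the limma fit), or 38.5-fold. This was the 20th largest rise of the 15803 probes that passed the filter on dim signals.

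The hormone leptin (Lep) was not detected in lung. Its processed signal lay between 2.45 and 4.08 on the 6 lung arrays and was well above background on none of them. Both blood arrays did read it above background, at 36.6 in control blood and 39.1 in NNK blood.

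Resistin (Retn), which in rodents is secreted by fat, was near background throughout. Its signals were 15.1, 18.4 and 43.7 in normal lung and 12.2, 14.5 and 16.3 in tumor. It was well above background on 4 of the 6 arrays. The normalized tumor values lay below the normal ones, with a log2 difference of -0.99 (SE 0.43), and 1 normal array had a signal above 40 while the others read below 20. Without normal lung 3 the difference was -0.49.

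Complement factor D, or adipsin (Cfd), a protease first described in fat cells, was bright in both tissues. It read 3174, 3340 and 3131 in normal lung and 4135, 3095 and 2927 in tumor, the last from a spot marked as an outlier. The groups overlapped, and the log2 difference was 0.19 (SE 0.14) without the marked spot.

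**Figure D1:**
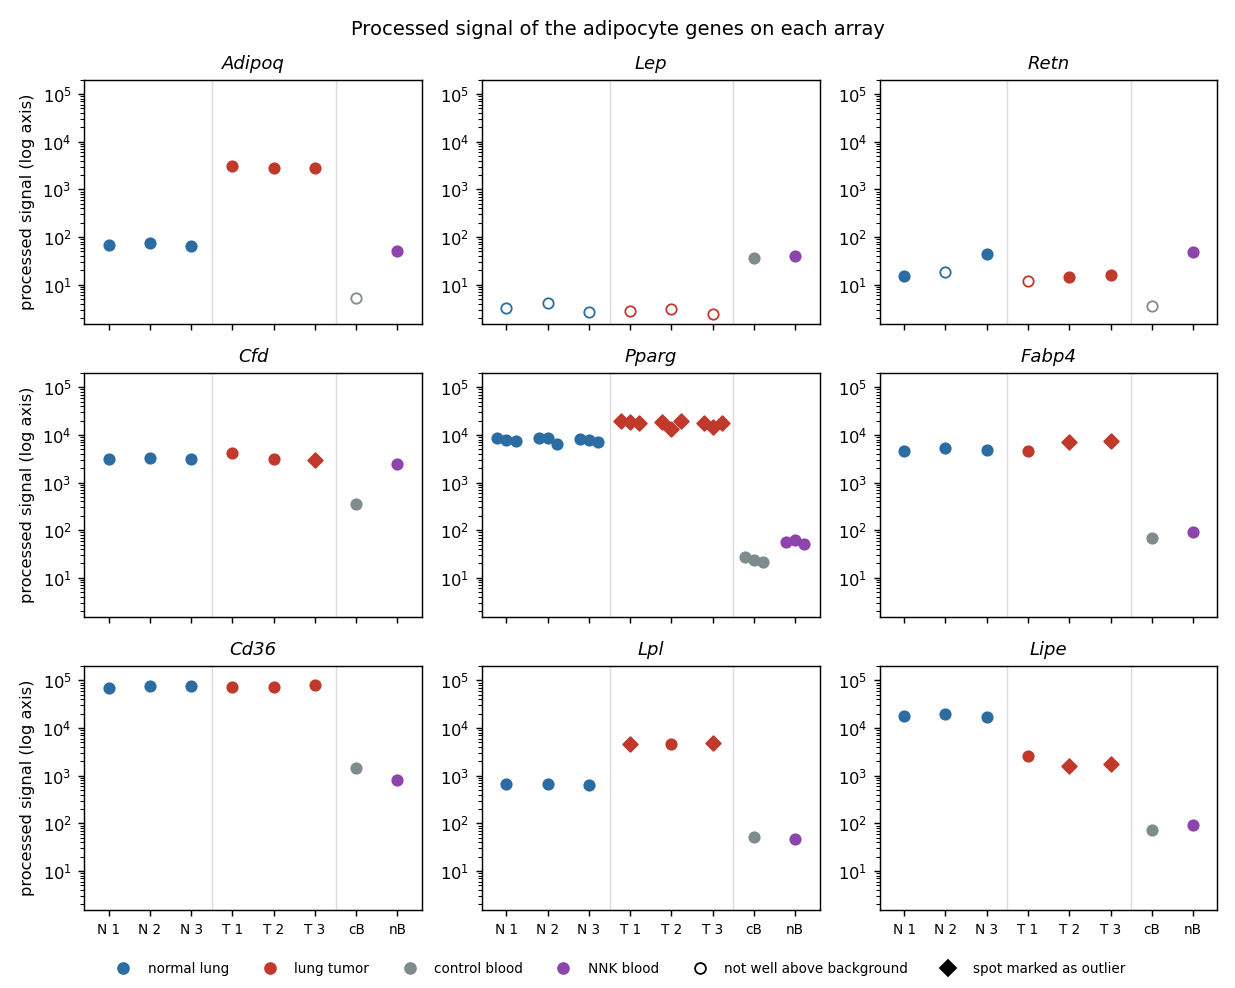
Processed signal (log axis) of the 9 adipocyte genes with a probe on each of the 8 arrays: normal lung (N 1 to N 3), lung tumor (T 1 to T 3), control blood (cB) and NNK blood (nB). Each point is 1 spot, Pparg has 3 probes drawn side by side, hollow points were not well above background and diamonds carry an outlier mark. Adipoq, Lpl and Pparg are higher on every tumor array than on any normal array, Lipe is lower, Cd36 is level, and Lep is at background in lung.

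The regulator Pparg was measured by 3 probes, and all 3 were higher in tumor. The probe of transcript NM_013124 read 7283, 6513 and 6953 in normal lung and 17591, 19119 and 17461 in tumor. NM_001145366 read 8020 to 8801 against 17935 to 19306. NM_001145367 read 7693 to 8460 against 13346 to 18712. The groups did not overlap for any of them, and the log2 differences were 1.53 (SE 0.10), 1.29 (SE 0.053) and 1.11 (SE 0.12), or 2.90-, 2.45- and 2.16-fold. All 9 tumor spots were marked as outliers by the scanner software, so these values come from a fit in which marked spots were kept. The 3 probes read transcripts of 1 gene and are not independent.

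The genes for fatty acid uptake and transport did not move alike. Lipoprotein lipase (Lpl), which frees fatty acids from circulating triglyceride, read 655, 674 and 645 in normal lung and 4607, 4611 and 4878 in tumor. The groups did not overlap, and the log2 difference was 2.83 (SE 0.065), or 7.10-fold, with 2 marked tumor spots kept. The fatty acid receptor Cd36 was bright in both tissues, at 67908 to 75296 in normal lung and 71981 to 78308 in tumor. Its groups overlapped, and its log2 difference was 0.048 (SE 0.065).

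The fatty acid binding protein Fabp4 read 4655, 5358 and 4902 in normal lung. In tumor it read 4675, 7005 and 7433, the last values from marked spots. Tumor 1 lay inside the normal range and the other tumors above it. The log2 difference was 0.45 (SE 0.21) with marked spots kept.

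Of the genes for storage and breakdown of fat, only hormone-sensitive lipase (Lipe), which cleaves stored lipid, could be read, since the droplet coat protein gene Plin1 had no matched probe. Lipe went the other way from Adipoq. It read 18169, 19914 and 16968 in normal lung and 2568, 1593 and 1791 in tumor. The groups did not overlap, and the log2 difference was -3.14 (SE 0.20), or 8.79-fold lower, with 2 marked tumor spots kept.

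**Figure D2:**
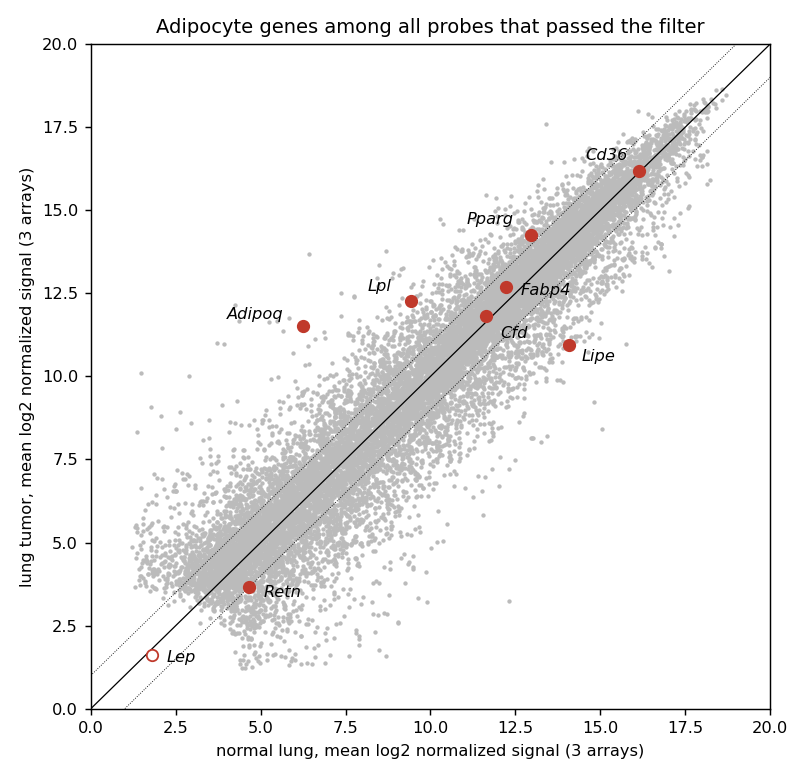
Mean log2 normalized signal in lung tumor (vertical axis, 3 arrays) against normal lung (horizontal axis, 3 arrays) for the probes that passed the filter (grey) and the adipocyte genes (red; Lep, hollow, did not pass; Pparg by its brightest probe). The solid line marks equal signal and the dotted lines a 2-fold difference, with Adipoq at 6.25 and 11.52, Lpl and Pparg above the dotted lines and Lipe below.

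In all, 8 of the 10 genes passed the filter on dim signals, 7 of them on all 6 lung arrays. Of these 8, 3 (Adipoq, Lpl and Pparg) were higher in tumor by 2-fold or more, 1 (Lipe) was lower by as much, and 4 (Fabp4, Cfd, Retn and Cd36) lay within 2-fold. Of all 15803 probes that passed, 14.9% were higher and 15.4% lower by that measure. Those that passed through 1 bright group alone had to differ, and the genes were picked on this contrast, so nothing is read from these counts. The median log2 difference of the 8 genes was 0.32, beside 0.065 over all probes tested.

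The arrays were not equally independent. The 3 normal lung arrays differed among themselves by less than the noise between repeat spots (observed over expected squared difference 0.568 to 0.899), as did tumors 2 and 3 (0.560), while tumor 1 differed from these by 3.32 to 3.60 and normal from tumor arrays by 9.46 to 13.3. The near-identical arrays were therefore counted as 1 sample in means with an SD. Counted in that way, Adipoq was 6.25 in normal lung (n = 1, no SD) and 11.55 ± 0.11 (SD, n = 2) in tumor. Lpl was 9.43 against 12.24 ± 0.072 (SD, n = 2), Pparg (NM_001145366) 12.97 against 14.27 ± 0.015 (SD, n = 2), and Lipe 14.07 against 11.04 ± 0.43 (SD, n = 2). Arrays with the same scan date in the file headers were taken as 1 slide. By this, tumor 1 was on the same slide as the normal arrays and tumors 2 and 3 were on another. Within that slide, tumor 1 minus normal lung was 5.37 for Adipoq, 2.76 for Lpl, 1.31 for Pparg and -2.73 for Lipe on the log2 scale. For tumors 2 and 3 it was 5.21, 2.86, 1.29 and -3.34. The labels give separate tissues but do not say from how many animals, so the p-values below measure the spread between these samples, which may be technical.

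The depth of arrays is limited by signal over background rather than by counts. The median processed signal was 25.0 to 35.6 on the lung arrays, 11.8 in control blood and 32.0 in NNK blood, and no spot was saturated. Outlier marks fell on 15.9% to 25.3% of the bright spots of the tumor arrays and on 4.92% to 8.62% of those of the normal arrays. Of the 8 genes that passed the filter, 4 (Adipoq, Cfd, Retn and Cd36) could be measured without marked spots.

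The wider fat cell program was read from 8 lists with 89 other genes. Of these, 74 had a probe, 12 were below background, 11 lost too many spots to outlier marks and 51 were tested with limma. Of the tested genes 4 were called higher in tumor (at least 2-fold with a Benjamini-Hochberg adjusted p of at most 0.05) and 15 were called lower, beside 13.5% and 15.5% of the 12471 probes tested. With marked spots kept, 6 of 62 were called higher and 18 lower, beside 13.5% and 14.4% of 15803 probes. The median log2 difference of the 51 genes was -0.17, against 0.065 for all probes tested. With the near-identical arrays counted once, 3 of the 51 were called higher and 8 lower, and with the slide as a block 6 and 14.

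Among 11 transcription factors and coactivators of fat cell differentiation, 4 were tested, 1 was called higher and 1 lower. Cebpa, which acts together with Pparg, gave only background signal in normal lung and read 31.0 to 37.5 in tumor, at least 2.16-fold higher (adjusted p = 0.0031 by limma). With the normexp background correction its log2 difference was 0.35 and the call was lost. Ebf1, a factor of early fat and B cells, fell by 1.48 (SE 0.12, adjusted p = 0.00019 by limma), a call that was lost with near-identical arrays counted once (adjusted p = 0.064). Klf15 read 28292 to 30003 in normal lung and 4378 to 4970 in tumor, but its tumor spots were marked and it was not tested. With marked spots kept it was called lower. Ppargc1a and Ppara were below background.

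Of 12 genes of the lipid droplet, 7 were tested, none was called higher and 1 was called lower. Cidec, a protein that fuses the droplets of fat cells, read 721 to 890 in normal lung and 1535 to 1744 in tumor. Its log2 difference of 0.99 (SE 0.086, adjusted p = 0.00028 by limma) fell just short of 2-fold, and the gene was called in 7 of 22 alternatives. Plin5, the coat protein of oxidative tissues, fell by 1.13 (SE 0.14, adjusted p = 0.0012 by limma), and its call was lost in 7 of 22 alternatives. Plin4 had no matched probe. The triglyceride lipase gene Pnpla2 and its inhibitor G0s2 were not tested for their marked spots, with log2 differences of -0.77 and -2.67. With these spots kept G0s2 was called lower and Pnpla2 was not called.

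Of 18 genes of fatty acid uptake and triglyceride synthesis, 12 were tested, and the median difference of these was -0.0011. Of these 3 were called lower and none higher. Gpihbp1, which carries Lpl to the capillary wall, read 112 to 119 in normal lung and 20.4 to 30.7 in tumor (log2 difference -2.53, SE 0.13, adjusted p = 4.2e-05 by limma). With normexp the difference of Gpihbp1 was -1.09. Pck1, an enzyme on a route to glycerol phosphate in fat, differed by -2.58 (SE 0.12, adjusted p = 2.6e-05 by limma). Slc2a4, the insulin-responsive glucose transporter, differed by -1.03 (SE 0.12, adjusted p = 0.0010 by limma), and its call was lost in 9 of 22 alternatives. Thrsp, a lipogenic protein of fat, read 155 to 196 against 467 to 928, but was not tested for its marked spots. It was called higher with these kept.

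Of 11 other proteins secreted by fat, 7 were tested and 3 were called lower. Agt (angiotensinogen) fell by 2.71, Orm1 (an acid glycoprotein of plasma) by 2.66 and Rbp4 (the retinol carrier) by 1.77, with adjusted p = 0.00031, 4.8e-06 and 2.8e-05 by limma. These proteins are also made in the liver. The call of Agt was lost with near-identical arrays counted once (adjusted p = 0.057). Apln and haptoglobin (Hp) were not tested for their marked spots, and their log2 differences were -2.29 and 2.02. With these kept Apln was called lower and Hp higher.

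The receptors of adiponectin differed from each other. Adipor1 read 100190 to 115456 in normal lung and 91938 to 105159 in tumor, groups that overlapped (log2 difference -0.16, SE 0.11, adjusted p = 0.25 by limma). Adipor2 read 258 to 281 in normal lung and 690 to 968 in tumor, with a rise of 1.46 (SE 0.18, adjusted p = 0.0025 by limma). With near-identical arrays counted once the call of Adipor2 was lost (adjusted p = 0.089), as it was in 3 of 20 alternatives in all. Cdh13, which binds adiponectin, did not pass the test (-0.14, adjusted p = 0.11 by limma). Lepr, the leptin receptor, was below background. Of the 8 genes of this list 5 were tested, 1 was called higher and none lower.

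Among 15 relatives of adiponectin with a C1q domain, 10 were tested, 1 was called higher and 4 lower. C1qtnf3, a secreted relative, gave only background signal in normal lung and read 65.7 to 102 in tumor, at least 5.0-fold higher (adjusted p = 0.0010 by limma). With normexp its log2 difference was 0.84 and the call was lost. C1qtnf1 fell by 2.60 and C1qtnf7 by 1.69 (adjusted p = 8.2e-06 and 2.7e-05 by limma). C1qtnf5 and C1qtnf6, named after their values were seen, were the other genes called lower. Their calls were lost with near-identical arrays counted once (adjusted p = 0.086 and 0.070), and in 4 and 8 of 22 alternatives in all. The C1q chains of complement, which macrophages make, were not called, with C1qa at 0.52 and C1qb at -0.14.

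Of 7 relatives of Fabp4, 4 were tested and 2 were called lower. Fabp1, of liver and gut, fell by 2.45 and Fabp9, known from testis, by 2.59 (adjusted p = 0.00018 and 0.00022 by limma). The call of Fabp9 was lost with near-identical arrays counted once (adjusted p = 0.052). Of 7 genes of brown fat, 2 were tested, and Cox8b, a respiratory chain subunit of muscle and brown fat, fell by 3.36 (adjusted p = 4.2e-06 by limma), with signals of 2167 to 2418 in normal lung and 222 to 246 in tumor. Ucp1, which defines brown fat, read 3.64 to 7.07 in normal lung and 11.52 to 22.3 in tumor. It was well above background on 2 tumor arrays and so did not pass the filter. Adrb3, the adrenergic receptor of fat, was well above background on no lung array.

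**Figure D3:**
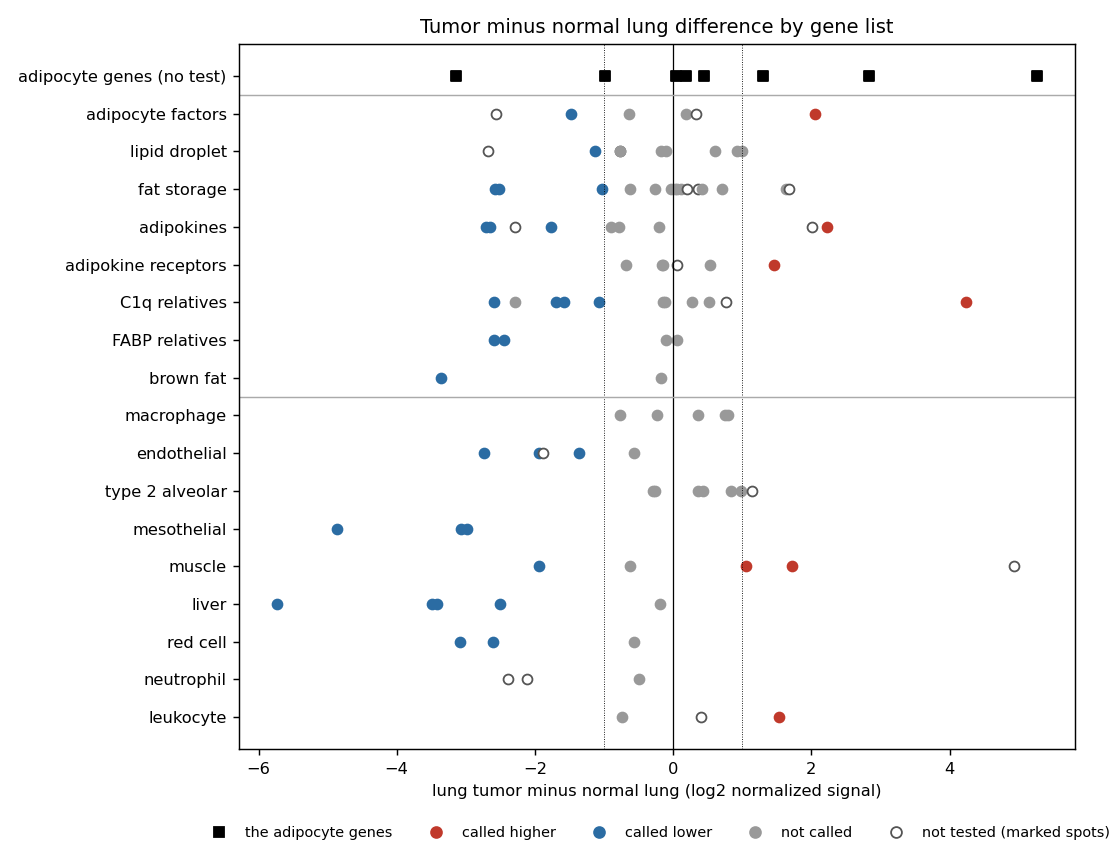
Difference between lung tumor and normal lung (log2 normalized signal, horizontal axis) for the adipocyte genes, the 8 lists of the wider fat cell program and 9 lists of cell type markers, with 1 point per gene that passed the filter. Red and blue points were called higher and lower, grey points were not called, hollow points were not tested for their outlier-marked spots, and the dotted lines mark 2-fold. The adipocyte genes spread from -3.14 to 5.27, and the mesothelial points all lie below -2.9.

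Markers of other cells moved between the same samples. Their part in the values above was not tested. Beside the counts below, 13.5% of the 12471 probes tested were called higher and 15.5% lower. Of 8 macrophage genes with a probe, 5 were tested and none was called, while 3 (Marco, Mertk and Cd163) were below background, and the summed normalized signal was 154884 to 165067 in normal lung and 162152 to 192109 in tumor. Of 6 type 2 alveolar genes tested none was called. Sftpc, the gene of surfactant protein C, was set aside for marked spots and differed by 1.14, which was called higher with these spots kept. That list summed to 1012960 to 1054080 against 1188990 to 1213680.

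Endothelial genes fell. Of 4 tested, 3 were called lower, namely Tek (-2.74), Cldn5 (-1.94) and Emcn (-1.37), with adjusted p = 3.9e-06, 6.2e-06 and 1.8e-05 by limma. Pecam1 (-1.88) was set aside for marked spots and was called lower with these kept. The list summed to 280439 to 289141 in normal lung and 77738 to 82745 in tumor. Cd36 and Fabp4, which both capillary endothelium and alveolar macrophages carry, differed by 0.048 and 0.45 (Fabp4 with marked spots kept). A link to the endothelial genes was not tested.

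The mesothelial genes Wt1 (-4.86), Msln (-3.07) and Upk1b (-2.99), which mark the pleural surface, were all called lower, and their list summed to 39007 to 41926 against 4540 to 4924. Of the liver list 4 of 5 were called lower, with Ttr at -5.73, Alb at -3.41 and Apoa2 at least 2.99-fold lower, and with sums of 21670 to 22695 against 1497 to 3051. Of the red cell list 2 of 3 were called lower (Alas2 -3.09, Slc4a1 -2.61), with sums of 213539 to 221919 against 130466 to 138754. The muscle list had 2 genes called higher (Tnni3 1.05 and Actc1, at least 1.04-fold) and 1 called lower (Myh6 -1.95) of 4, with sums of 1364 to 1465 against 3099 to 3844. Tnnt2, cardiac troponin T, had the largest difference of that list, 4.94, with signals of 16.0 to 23.0 in normal lung and 510 to 736 in tumor. It was set aside for marked spots and was called higher with these kept. With normexp the calls of Actc1 (0.17), Myh6 (-0.58) and the liver gene Apoa2 (-0.57) were lost, and in the paired form of the methods' t-test those of Actc1, Myh6 and Alb.

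Of 3 neutrophil genes with a probe 1 was tested and was not called, and S100a8 and Csf3r were set aside for marked spots (-2.12 and -2.40). Both were called lower with these spots kept. That list summed to 12766 to 13597 against 2678 to 3320. Of the 2 leukocyte genes tested, the B cell gene Cd79b was called higher, at least 1.59-fold. The T cell gene Cd3e went the other way and was not called (-0.75, adjusted p = 0.00089 by limma). The list summed to 58073 to 58729 against 70418 to 80272. Most of that sum came from Ptprc, which was set aside for marked spots and differed by 0.40. The call of Cd79b was lost in 8 of 21 alternatives, and its log2 difference went down to 0.34. The call of Alb was lost with near-identical arrays counted once (adjusted p = 0.10), as were those of Tnni3, Myh6 and Cd79b.

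The genes beside Adipoq on the chromosome were taken by position, 10 protein-coding genes on either side in GRCr8, and 13 of them were tested. The nearest on one side, St6gal1, a sialyltransferase, rose by 2.10 (SE 0.084, adjusted p = 1.7e-05 by limma), with signals of 22054 to 25040 in normal lung and 92180 to 107983 in tumor. On the other side Rfc4, a replication factor, differed by 0.77 and was not tested for its marked spots, and Eif4a2, a translation factor, differed by -0.15 (adjusted p = 0.056 by limma). Farther out the kininogen genes Kng2 and Kng2l1 rose by 2.49 and 2.60, while Hrg was at least 46.9-fold lower and Ahsg and Masp1 differed by -4.198 and -2.96 on the log2 scale, all called. Rises and falls lay side by side around Adipoq. The kininogen genes are near copies of each other, so their probes may share signal.

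**Figure D4:**
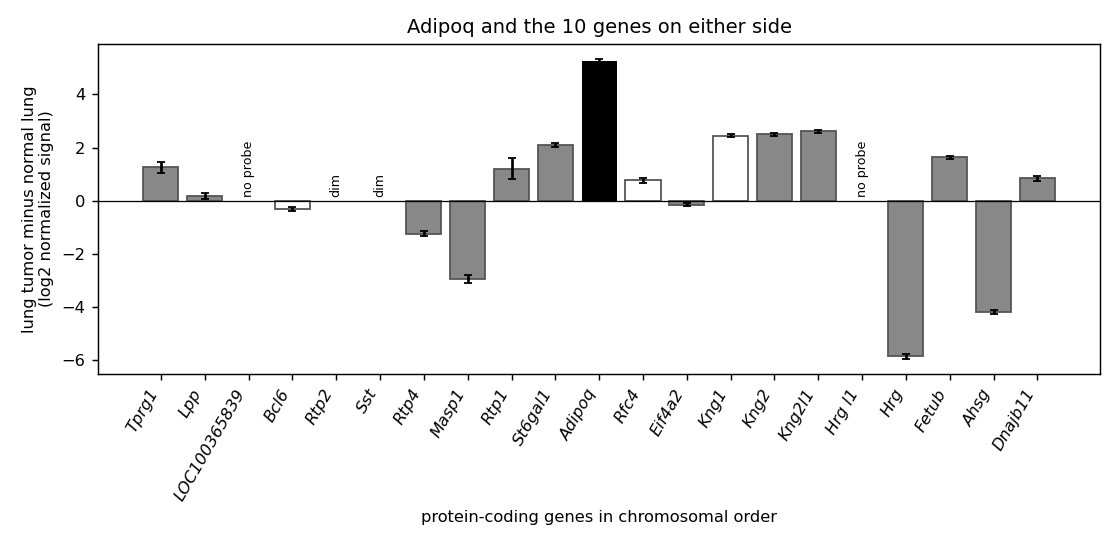
Log2 difference between lung tumor and normal lung (bars, with the SE of the fit) for Adipoq (black) and the 10 protein-coding genes on either side in chromosomal order. White bars were not tested for their outlier-marked spots, and genes with no matched probe or below background are written as "no probe" and "dim". St6gal1, next to Adipoq, is at 2.10 and Hrg is at -5.86, with tumor signals that were not well above background.

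The probes whose profile was most like that of Adipoq were sought over all 8 arrays, normalized together, by the root mean square difference of mean-centred log2 signals among 11172 mRNA probes. The likeness is a description over 8 arrays that share their tissues, and no test was made. The closest was Defb5, a defensin of epithelia (0.372), which read 14.98 to 19.03 in normal lung, 377 to 464 in tumor, 2.39 in control blood and 20.02 in NNK blood, neither blood value well above background. Next came Ccl28, a chemokine of mucosal epithelium (0.577), Bpifb1, a secreted protein of the airway (0.634), Adam9, a membrane protease (0.776), and Scgb3a1, a secretoglobin of the airway (0.781). The log2 differences of these 5 between tumor and normal lung were 4.36, 3.86, 4.78, 3.29 and 3.48. Being picked for likeness to Adipoq, they had to be higher in tumor. Bpifb1 read only 7.54 to 9.52 in normal lung, where Cebpa at up to 9.67 was not well above background. Its difference of 4.78 may therefore rest on background. On the control blood array Ccl28, Bpifb1 and Adam9 had the same lowest signal as Defb5, 2.39, so the likeness there rests on background. None of the other adipocyte genes was among them.

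**Figure D5:**
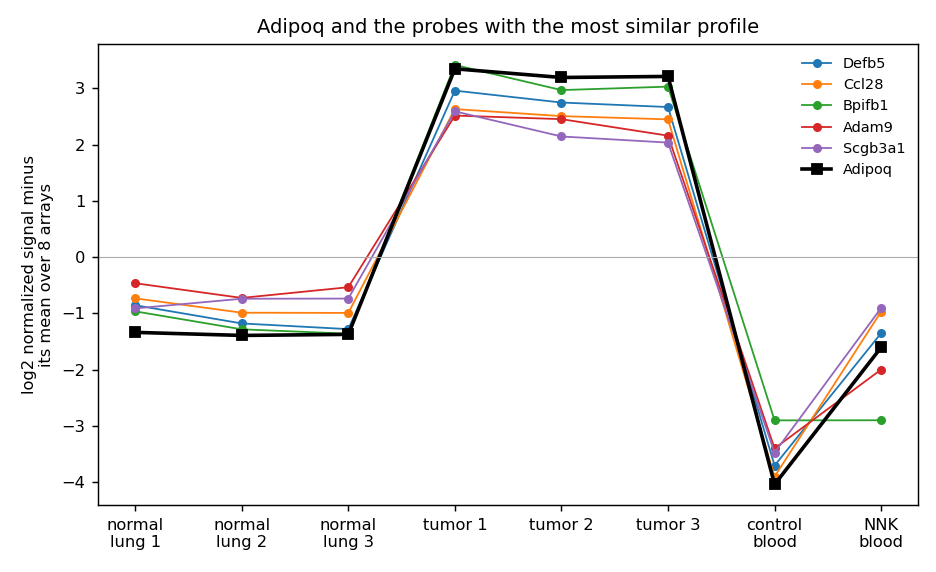
Log2 normalized signal of Adipoq (black) and of the 5 probes with the most similar profile, each minus its own mean over the 8 arrays (vertical axis), on each array. All 6 are high in the 3 tumors and low in normal lung. In control blood none of the 6 was well above background, and in NNK blood only Adipoq and Scgb3a1 were, so the other blood points are not measured levels.

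In blood the arrays number 1 a group, so differences between them have no replicate check. Most of the adipocyte genes were dim there. Adipoq read 5.12 in control blood, not well above background, and 51.0 in NNK blood, at least 1.61-fold higher. Retn read 3.61, not well above background, and 48.6, at least 1.52-fold higher. Both bounds are for the main normalization, and over the alternatives the log2 differences went down to 0.50 for Adipoq and 0.53 for Retn. Cfd read 355 and 2452, a normalized difference of 2.18 on the log2 scale, or 4.54-fold.

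Other genes were level or lower in NNK blood after normalization. Cd36, which platelets and monocytes carry, read 1441 and 826 (-1.38 on the log2 scale). Lpl read 51.2 and 47.3 (-1.44) and Lep 36.6 and 39.1 (-1.25). Fabp4 differed by -0.76, Lipe by -0.86 and the 3 Pparg probes by -0.32, 0.019 and -0.16. By the normalized values 3 of the 9 genes (Cfd, Adipoq and Retn) were higher and 3 (Cd36, Lpl and Lep) lower by 2-fold or more, beside 23.2% and 18.9% of 14680 probes. The bounds of Adipoq and Retn lie below 2-fold, which leaves Cfd as the 1 gene read above background on both arrays and higher by that much, and the median over all probes was -0.12. The direction of raw and normalized values differed for Lep, Fabp4, Lipe and 2 of the Pparg probes, whose raw signals were higher in NNK blood, an array with a brighter median.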

How the data were processed

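Total RNA of 3 lung tumors, 3 matched normal lungs and 2 blood clots was labelled with Cy3 and hybridised to the Arraystar rat lncRNA array. The authors deposited the intensity of each spot as given by Agilent Feature Extraction 10.5.1.1 (processed signal, background-subtracted, not scaled between arrays) and a table of log2 values that they had quantile-normalized in GeneSpring. The first was used and the second was an alternative. Per the file headers the array design used the build rn4, and names came from RefSeq of GRCr8, to which 14274 of 15321 mRNA probes (93.2%) matched.

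In R 4.3.3 and limma 3.58.1, log2 processed signals were quantile-normalized separately for lung (6 arrays) and blood (2). Spots marked as non-uniform or population outliers were dropped. For Fabp4, Lpl, Pparg and Lipe too few remained, and all spots were kept. A probe passed if well above background on at least 3 of 6 lung arrays, and was tested with at least 2 values per group. lmFit and eBayes had the group as the only term, and a call needed a 2-fold change and a Benjamini-Hochberg adjusted p of at most 0.05 over all probes tested. Where a whole group lacked signal well above background, the fold was a bound, set by the higher of its own signal and the lowest signal well above background. These bounds hold for the main normalization only, and some differences were smaller with normexp. A gene with several probes was represented by the brightest.

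The genes and lists were chosen with earlier results of these data known. Named were the 10 genes, up to 3 called genes per list with the largest change and no overlap, Cidec, Plin4, Cebpa, Adrb3 and Ucp1, and the 5 probes most like Adipoq. A gene that this rule names is not reported here. The genes beside Adipoq were added by position, and the untested genes and those near the threshold were named after their values were seen.

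The study calls the tissues matched, and the labels give both groups the same numbers. Same-numbered tissues deviated together with correlations of 0.14, -0.041 and 0.16, and differently numbered ones with -0.19 to 0.14. The normal arrays differed by less than the noise between repeat spots, so these values cannot show whether the numbers mark pairs. The main fit did not use the numbers as pairs, while the replicate block and the paired t-test did. On simulated data of the lung comparison, with 200 of 11359 probes changed, limma recovered 84% with 2 false calls. The simulated noise was independent between arrays, and fewer probes were changed than were called in the real data. The simulation therefore gives no error rate for these arrays, some of which were near-identical. Alternatives were a 75th percentile shift, normalization over 8 arrays, normexp (offset 50, on median signals), a floor of 5, 2 other filters, marked spots kept, the authors' values, the methods' t-test and its paired form, replicate and slide blocks, near-identical arrays counted once, and each lung array left out.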

Additional observations from a re-analysis of the deposited data

How the results depend on the processing

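No called gene of the lists was reversed in any alternative, and neither were Adipoq, Lpl, Pparg and Lipe. The differences of Fabp4, Lep, Cfd and Cd36 crossed 0 in some. The direction of the genes beside Adipoq and of the other called probes was not followed. The log2 difference of Adipoq was 5.27. It was 5.35 with a 75th percentile shift, 4.62 with normalization over all 8 arrays, 4.50 with normexp, 4.65 in the authors' values and 5.37 with the slide as a block (also with marked spots kept), and 5.21 to 5.30 with 1 array left out. In all 22 alternatives 3 of the genes were higher by 2-fold or more, with Lpl down to 2.53 and Pparg (NM_001145366) down to 1.11 on the log2 scale. The filters, the t-tests and the replicate block use the same values, so they could not move these differences. The other Pparg probes were not followed through the alternatives. NM_001145367 was 0.998 for tumors 2 and 3 minus normal lung, just short of 2-fold. The count at least 2-fold lower was 1 to 2 with 1 array left out, since Retn joined Lipe without normal lung 1, normal lung 2 or tumor 1.

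Of the 89 genes of the fat cell program, 4 were called higher. There were 2 with a filter on all 6 arrays, 7 in the authors' values, 3 to 5 with 1 array left out and, in fits added after seeing the data, 7 and 8 with marked spots kept and a replicate or slide block. The 15 called lower were 8 with near-identical arrays counted once and 14 to 16 with 1 array left out. The replicate block alone, which treats same-numbered tissues as pairs, gave 4 and 15, and it changed no call of a listed gene. Of 35 listed genes called, 12 were lost with near-identical arrays counted once and 10 with normexp. Calls over all probes numbered 3612, but 2224 with normexp, 1754 with near-identical arrays counted once and 3182 to 3736 with 1 array left out.

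In blood, the difference was 0.50 to 3.11 for Adipoq, 0.53 to 3.64 for Retn, 1.68 to 2.18 for Cfd -1.91 to -1.15 for Cd36, -2.62 to -0.63 for Lpl and -2.29 to -0.45 for Lep over 6 alternatives. The cause of these shifts was not tested. Lep in lung, and Adipoq and Retn in control blood, were limited by background.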
